A study of Mus musculus with 6 samples.

Results

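Id1, Id2 and Id3 encode inhibitor of DNA binding (ID) proteins, and they are described here across the epithelial cell classes of the mouse jejunum and within the hormone groups of its enteroendocrine cells. The 3 genes were taken by name from the deposited tables and were listed in both, as 3 of 5674 genes shared by the tables and of 6996 genes listed in at least 1. Id4 was listed in neither. The samples were EpCAM-positive, DAPI-negative cells of 120-day-old mice on a mixed CD-1:C57BL/6 background. Each of 3 mice gave 1 sample of anterior jejunum (piece 3 of the 12 into which the small intestine was divided) and 1 of posterior jejunum (piece 7), so that 3 anterior and 3 posterior samples share their mice. Villus and crypt cells were pooled in equal parts before sorting, and the labels give no genotype for any sample. The title of the study concerns ID2 in enteroendocrine differentiation.

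ID proteins hold a helix-loop-helix domain without the basic stretch that contacts DNA. They pair with E proteins, the products of Tcf3, Tcf4 and Tcf12, and so keep them from tissue-specific basic helix-loop-helix (bHLH) factors such as NEUROG3, NEUROD1 and ATOH1, which drive secretory and endocrine differentiation in the gut. In many tissues the ID genes are direct targets of bone morphogenetic protein (BMP) signals carried by SMAD proteins. Enteroendocrine cells are the rare hormone-secreting cells of the gut epithelium. They store peptide hormones in granules with chromogranin A (Chga) and chromogranin B (Chgb).

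Id1 (ENSMUSG00000042745) lies on the plus strand at chr2:152736251-152737410, Id2 (ENSMUSG00000020644) on the minus strand at chr12:25093799-25097140 and Id3 (ENSMUSG00000007872) on the plus strand at chr4:136143497-136145755 (GRCm38, GENCODE vM21 annotation). Stretches of the Id2 and Id3 promoters are shown because these genes are known SMAD targets. They come from the RefSeq promoter table of GRCm38.p6, which does not include Id1. The Id2 stretch (chr12:25096254-25096342, minus strand) runs from 250 to 162 bases before the RefSeq start and lies inside the GENCODE span of Id2, downstream of its GENCODE start, but outside every annotated GENCODE exon. The Id3 stretch (chr4:136143643-136143672, plus strand) runs from 179 to 150 bases before the RefSeq start and lies in the first exon that GENCODE gives Id3. Capitals mark GGCGCC, a GC-rich sequence known from BMP-responsive promoters, in Id2 and CAGAC, a SMAD-binding sequence, in Id3.
Id2: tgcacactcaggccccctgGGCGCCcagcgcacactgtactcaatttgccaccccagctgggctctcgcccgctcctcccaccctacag
Id3: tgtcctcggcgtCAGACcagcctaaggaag

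Both strands of the whole 300-base windows were searched. GGCGCC occurred at 1 place in the Id2 window and at none in the Id3 window, and 11.9% of 32851 promoter windows held it. CAGAC occurred at 2 places in the Id3 window, 167 and 68 bases before the start, and at none in the Id2 window, and 49.6% of the windows held it. The E-box CANNTG, the binding sequence of bHLH dimers, occurred at 1 place in the Id2 window, 196 bases before the start and clear of GGCGCC, at none in the Id3 window, and in 72.3% of the windows. These matches describe letters only, and the deposited data hold no measure of binding.

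Expression was measured by MARS-seq, a plate method that counts mRNA molecules by unique molecular identifiers (UMIs) at the 3′ end. Levels are UMIs per 10000 UMIs of a cell (CP10K), and they are compared between cells and not between genes. The tables held 2043 cells, 1028 anterior and 1015 posterior, with 13248658 UMIs. The median UMI count per cell was between 2766 and 8689.5 in the 6 samples. No cell name occurred in both tables. Clustering without the ID genes, hormones and related regulators gave 1 enteroendocrine-like cluster of 116 cells, with 74 anterior cells (60, 8 and 6 from mice 1, 2 and 3) and 42 posterior cells (30, 8 and 4). Mouse 1 thus gave 90 of them. All 8 enteroendocrine markers listed in at least 1 table were raised in this cluster, and 84.5% of its cells carried at least 2 of them. Only 2 of the 8, Chga and Chgb, were listed in both tables, so the others were scored in the cells of 1 region. Chga averaged 131 ± 43.9 CP10K there (SD, n = 6) and Chgb 311 ± 89.3 CP10K, whereas Chga reached at most 1.31 CP10K and Chgb at most 2.81 CP10K in any sample with at least 3 cells of the tuft-like (40 cells), goblet-like (635), crypt progenitor-like (168) and enterocyte-like (885) classes. Paneth-like samples (97 cells), the shallowest class, reached 3.31 CP10K of Chga and lay between 4.78 and 10.1 CP10K of Chgb. Chga and Chgb were not left out of the clustering and helped to name the enteroendocrine-like cluster. Their levels therefore describe that class and are no separate test of it. Of the markers looked for, 1 of 13 for T cells, 3 of 8 for B or plasma cells, 0 of 8 for myeloid and 1 of 10 for stromal cells were listed in at least 1 table, so the part of such cells in the results was not tested.

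All 3 ID genes were higher in enteroendocrine-like cells than in the mean of goblet-like, crypt progenitor-like and enterocyte-like cells. Enteroendocrine-like cells made up 5.68% of the cells and 3.55% of the UMIs. They held 22.5% of the Id2 UMIs (214 of 953), 10.8% of the Id1 UMIs (413 of 3813) and 10.5% of the Id3 UMIs (402 of 3823).

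Id2 averaged 5.79, 5.05 and 4.66 CP10K per enteroendocrine-like cell in anterior mice 1, 2 and 3, and 5.66, 0.650 and 0.458 CP10K in posterior mice 1, 2 and 3. Its lowest and highest sample were 0 and 2.44 CP10K in tuft-like, 0.0752 and 2.17 in goblet-like, 0 and 0.955 in crypt progenitor-like and 0.0826 and 0.805 in enterocyte-like cells. In 4 samples the enteroendocrine-like level was thus above every sample of the other classes, whereas in posterior mice 2 and 3 it lay within the range of each of them. In posterior mouse 2 all 7 Id2 UMIs came from 1 of 8 enteroendocrine-like cells, and in posterior mouse 3 the single Id2 UMI came from 1 of 4. The mean over samples was 3.71 ± 2.48 CP10K (SD, n = 6) in enteroendocrine-like cells, 0.820 ± 1.05 in tuft-like (n = 5), 0.998 ± 0.838 in goblet-like, 0.457 ± 0.428 in crypt progenitor-like and 0.373 ± 0.294 in enterocyte-like cells (n = 6 each).

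Id1 averaged 6.31, 5.10 and 6.41 CP10K in the anterior and 6.22, 16.9 and 6.86 CP10K in the posterior enteroendocrine-like cells of mice 1, 2 and 3. Posterior mouse 2 stood above the other samples, and the ranges of the tuft-like (2.59 to 6.04 CP10K) and crypt progenitor-like samples (2.86 to 6.83) overlapped the enteroendocrine-like one. Goblet-like (1.84 to 3.93) and enterocyte-like samples (1.07 to 3.32) did not overlap it. The means ran from 7.97 ± 4.41 CP10K in enteroendocrine-like cells over 4.52 ± 1.59 in crypt progenitor-like, 3.81 ± 1.36 in tuft-like (n = 5) and 2.74 ± 0.782 in goblet-like to 2.22 ± 0.880 in enterocyte-like cells (SD, n = 6 otherwise).

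Id3 averaged 8.28, 3.21 and 12.1 CP10K in the anterior and 12.0, 15.5 and 14.6 CP10K in the posterior enteroendocrine-like cells of mice 1, 2 and 3. The value of anterior mouse 2 lay within the range of the tuft-like (0 to 6.79 CP10K), goblet-like (2.36 to 5.34) and crypt progenitor-like samples (1.93 to 3.31) and just above the enterocyte-like ones (1.63 to 3.01), and the other 5 lay above all of them. The enteroendocrine-like mean of 10.9 ± 4.54 CP10K (SD, n = 6) compares with 3.67 ± 2.68 in tuft-like (n = 5), 3.44 ± 1.06 in goblet-like, 2.59 ± 0.566 in crypt progenitor-like and 2.18 ± 0.635 in enterocyte-like cells.

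**Figure D1:**
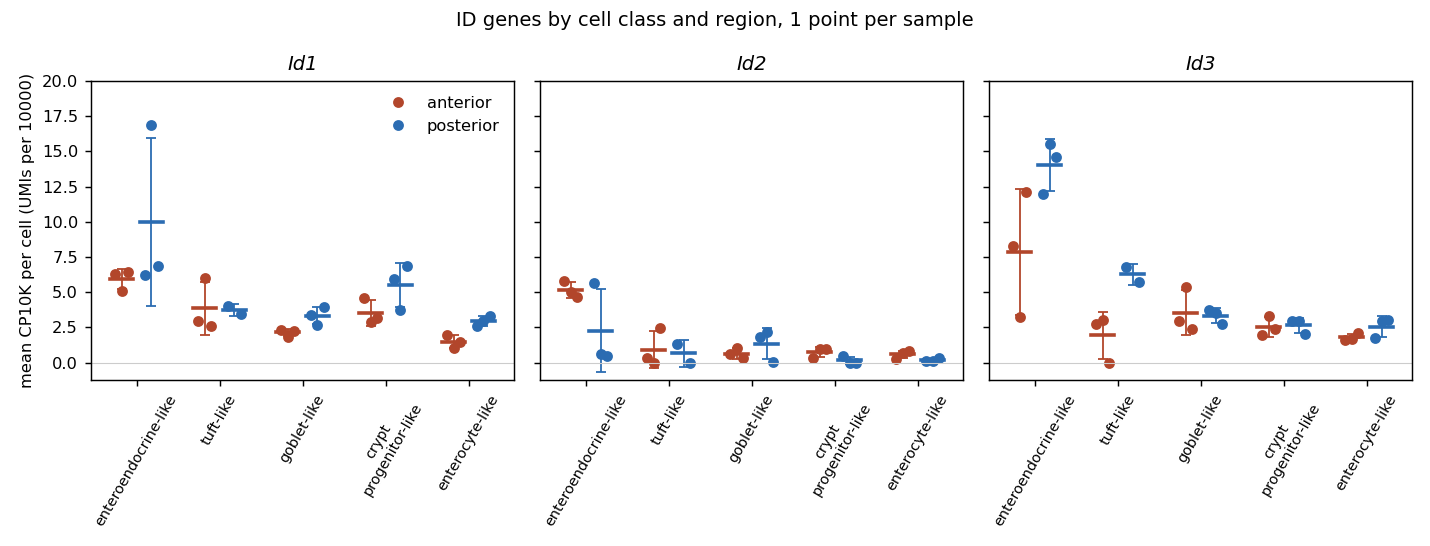
Mean level of Id1, Id2 and Id3 per cell (vertical axis, CP10K) by cell class (horizontal axis), 1 point per sample, with the mean and SD of 3 anterior (red) and up to 3 posterior samples (blue). Id2 in enteroendocrine-like cells lay between 4.66 and 5.79 CP10K in the anterior samples and at 5.66, 0.650 and 0.458 CP10K in the posterior ones.

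The class levels were tested with limma on log2(mean CP10K + 0.2) per class and sample, with the sample as a block and Benjamini-Hochberg adjustment over 5259 genes. The log2 difference between enteroendocrine-like cells and the mean of the other 3 classes was 2.16 for Id2 (SE 0.49, adjusted p = 0.00297), 1.83 for Id3 (SE 0.43, adjusted p = 0.00386) and 1.28 for Id1 (SE 0.32, adjusted p = 0.00636; limma). The 6 samples come from 3 mice, so they are not fully independent. Within each of the 6 samples all 3 differences were above 0, the lowest being 0.03 for Id3 in anterior mouse 2. Of all genes, 12.5% passed in this comparison and 3.50% were higher, and the median log2 difference over all genes was -0.27. Without posterior mouse 2 the difference of Id1 was 1.06 and missed the threshold (limma, adjusted p = 0.0519). With anterior samples only, Id2 alone passed, and with posterior samples only, Id3 alone passed.

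Against tuft-like cells, the other rare class, Id2 was higher by 2.32 (SE 0.63, adjusted p = 0.0112) and Id3 by 1.99 (SE 0.55, adjusted p = 0.0129), while Id1 differed by 0.89 (SE 0.41, adjusted p = 0.153; limma, log2 scale). In this comparison 12.9% of all genes passed, 8.54% as higher, and the median gene stood at 0.31. The tuft-like values rest on 3 to 16 cells a sample, and posterior mouse 2 with 1 tuft-like cell did not enter. Id2 missed the threshold without anterior mouse 1 (2.08, limma adjusted p = 0.0732) or anterior mouse 2 (1.73, adjusted p = 0.105), and Id3 without anterior mouse 3 (1.02, adjusted p = 0.173), whose 4 tuft-like cells had no Id3 UMI.

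Among the other classes no ID gene passed. Tuft-like cells differed from the mean of the 3 abundant classes by 0.40 for Id1 (limma, adjusted p = 0.391), -0.16 for Id2 (0.835) and -0.16 for Id3 (0.813), in a comparison in which 31.7% of all genes passed. Goblet-like cells differed from enterocyte-like cells by 0.33, 0.86 and 0.60 for Id1, Id2 and Id3 (limma, adjusted p = 0.624, 0.375 and 0.491; 13% of all genes passed). Crypt progenitor-like cells differed from enterocyte-like cells by 0.99 for Id1 (limma, SE 0.39, adjusted p = 0.0647), 0.02 for Id2 (0.986) and 0.24 for Id3 (0.796), where 21.0% of all genes passed. Id1 in crypt progenitor-like cells passed under 4 other settings of the same comparison, with adjusted p between 0.0174 and 0.0381. A p above the threshold does not show that levels were alike.

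The share of cells with at least 1 UMI depends on depth, and the classes differed in depth: the median UMI count was 3546 in enteroendocrine-like, 2789.5 in tuft-like, 2137 in goblet-like, 12615 in crypt progenitor-like and 6615 in enterocyte-like cells. Id2 UMIs were seen in 40.5% of enteroendocrine-like, 17.5% of tuft-like, 12.1% of goblet-like, 25.0% of crypt progenitor-like and 11.5% of enterocyte-like cells. With each cell thinned to 1000 UMIs, which left out 12, 1, 66, 0 and 58 shallower cells of these classes, the shares were 24.0%, 7.69%, 5.98%, 4.17% and 3.14%. For Id1 the thinned shares were 42.3%, 25.6%, 19.2%, 32.1% and 15.6% in the same order of classes, and for Id3 43.3%, 28.2%, 21.1%, 16.1% and 17.8%. Before thinning, the crypt progenitor-like cells had the highest share for Id1 (81.0%) and Id3 (67.9%), and after it the enteroendocrine-like cells had.

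Between the regions, no ID gene passed the test in any class. In enteroendocrine-like cells Id2 averaged 5.17 ± 0.575 CP10K in the anterior and 2.26 ± 2.95 CP10K in the posterior samples (SD, n = 3 each), a log2 difference of 1.85 (SE 0.91, unadjusted p = 0.0448, adjusted p = 0.94 by limma). The groups overlapped, since posterior mouse 1 with 30 cells was at 5.66 CP10K, and the low posterior values came from the mice with 8 and 4 cells. Id3 averaged 7.87 ± 4.47 in the anterior and 14 ± 1.81 CP10K in the posterior samples (limma difference -1.0, SE 0.67, adjusted p = 0.94), and Id1 5.94 ± 0.728 and 9.99 ± 5.98 CP10K (difference -0.59, SE 0.72, adjusted p = 0.958). Single samples moved these differences, to between 1.26 (without posterior mouse 3) and 2.84 (without posterior mouse 1) for Id2, -1.39 (without anterior mouse 3) and -0.47 (without anterior mouse 2) for Id3, and -0.85 (without posterior mouse 1) and -0.14 (without posterior mouse 2) for Id1. In this comparison 0.0877% of all genes passed, and 4.36% had an unadjusted p under 0.05. In posterior mouse 1, 1 cell with 24885 UMIs held 67 of 141 Id1 UMIs, or 47.5%. The summed Id1 level of posterior enteroendocrine-like cells was 13.2 CP10K with that cell and 10.7 without it.

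In enterocyte-like cells Id1 was 1.96, 1.07 and 1.44 CP10K in the anterior and 2.58, 2.94 and 3.32 CP10K in the posterior samples of mice 1, 2 and 3. The groups did not overlap, but the difference of -0.93 (SE 0.35, unadjusted p = 0.0235) had an adjusted p of 0.998 by limma, in a comparison in which 0 of 4983 genes passed and 4.37% had an unadjusted p under 0.05. Id2 in the same cells was 0.283, 0.656 and 0.805 CP10K in the anterior and 0.0826, 0.112 and 0.298 CP10K in the posterior samples, which overlapped (limma difference 1.08, SE 0.41, unadjusted p = 0.0237, adjusted p = 0.998). Paired by mouse, Id2 was higher in the anterior sample of all 3 mice (0.77, 1.45 and 1.01 on the log2 scale) and Id1 lower in all 3 (-0.37, -1.31 and -1.10). With the mouse as a block neither passed (limma, adjusted p = 0.44 for Id2 and 0.452 for Id1). The class drew on different clusters in the 2 regions, and the part of this in the class values was not tested. Clusters 2, 3, 4 and 7 gave 174, 119, 10 and 107 of the anterior cells and 199, 83, 173 and 20 of the posterior ones. Within these clusters the summed Id2 level was 0.405, 0.471, 1.48 and 0.950 CP10K in anterior cells, against 0.0515, 0.109, 0.378 and 0.405 CP10K in posterior cells, and so higher in anterior cells in each of the 4. Id1 was 1.92, 2.01, 1.31 and 0.810 CP10K in anterior cells, against 2.75, 2.54, 2.97 and 0.810 CP10K in posterior cells of the same clusters.

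Crypt progenitor-like cells had 0.364, 0.955 and 0.946 CP10K of Id2 in the anterior and 0.477, 0 and 0 CP10K in the posterior samples (difference 1.59, SE 0.59, unadjusted p = 0.0161, adjusted p = 0.927 by limma; 0 of 4879 genes passed and 4.45% had an unadjusted p under 0.05). The groups overlapped through mouse 1, the one posterior sample with Id2 UMIs, and posterior mice 2 and 3 gave 11 and 6 cells. Goblet-like cells had 0.612, 1.03 and 0.301 CP10K of Id2 in the anterior and 1.81, 2.17 and 0.0752 CP10K in the posterior samples (limma difference -0.46, SE 0.81, adjusted p = 0.997; 0.0234% of genes passed and 3.21% had an unadjusted p under 0.05). The sign was not stable there: the difference was 0.09 without posterior mouse 2, and within mice 1, 2 and 3 it was -1.31, -0.95 and 0.86. In tuft-like cells Id3 was 2.77, 3.05 and 0 CP10K in the anterior samples and 6.79 and 5.74 CP10K in posterior mice 1 and 3, without overlap (limma difference -2.37, SE 1.45, adjusted p = 0.981; 0 of 4004 genes passed and 2.60% had an unadjusted p under 0.05). The test of whether the enteroendocrine-like difference from the 3 abundant classes varied with region, by limma, gave 1.11 for Id2 (SE 0.96, adjusted p = 0.772), 0.12 for Id1 (adjusted p = 0.977) and -0.83 for Id3 (adjusted p = 0.797), with 0 of 5259 genes past the threshold and 9.36% at an unadjusted p under 0.05.

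**Figure D2:**
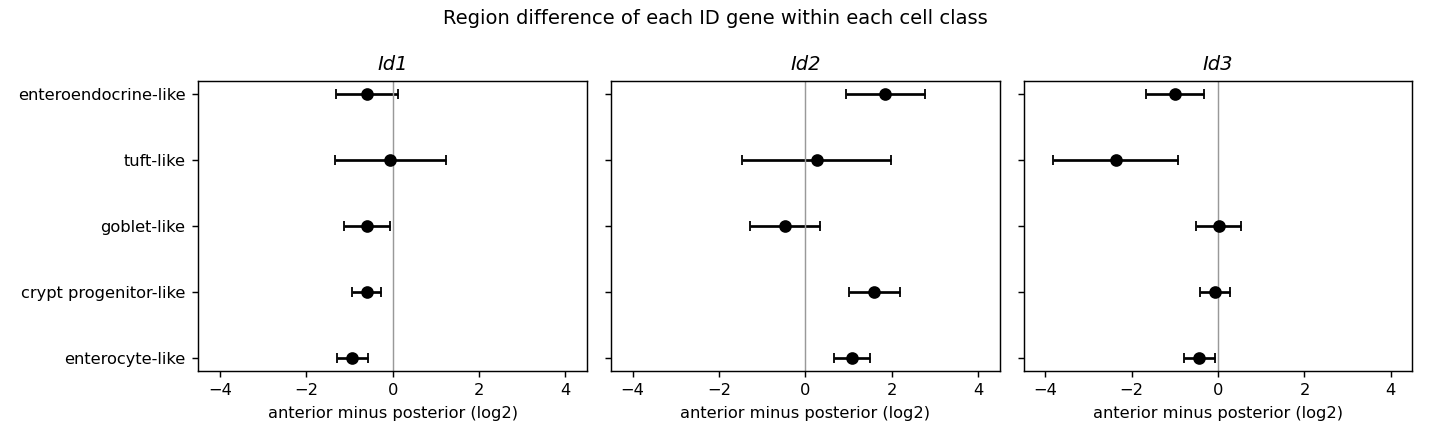
Anterior minus posterior difference of Id1, Id2 and Id3 (horizontal axis, log2 scale) in each cell class (vertical axis), as the limma estimate with its standard error. Id2 stood at 1.85 in enteroendocrine-like, 1.59 in crypt progenitor-like and 1.08 in enterocyte-like cells but at -0.46 in goblet-like cells (0.09 without posterior mouse 2), and no adjusted p was under 0.05.

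The hormone genes divide the enteroendocrine-like cells. A cell was called positive for a hormone gene with at least 2 UMIs and at least 10 CP10K of it. Of 74 anterior cells, 63 were positive for Sct (secretin), 39 for Gip (glucose-dependent insulinotropic polypeptide), 28 for Tph1 (the enzyme that starts serotonin synthesis), 22 for Cck (cholecystokinin), 14 for Tac1 (substance P and neurokinin A), 13 for Sst (somatostatin), 9 for Ghrl (ghrelin) and 7 for Nts (neurotensin). Of 42 posterior cells, 37 were positive for Sct, 10 for Gip, 8 for Cck, 8 for Pyy (peptide YY) and 6 for Nts. Sst, Ghrl, Tph1 and Tac1 were listed in the anterior table only, Pyy in the posterior table only and Gcg in neither.

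Hormone RNA also occurred in cells of another class. Among anterior enterocyte-like cells, with a median of 6540.5 UMIs against 3747.5 in anterior enteroendocrine-like cells, 16.1% met the same rule for Gip, 14.9% for Sst, 3.90% for Sct, 2.93% for Cck, 0.488% for Nts, 0.244% for Ghrl and 0% for Tac1 and Tph1. Among posterior enterocyte-like cells, with a median of 6716 UMIs against 2464.5, the shares were 6.32% for Sct, 4.84% for Nts, 1.05% for Pyy, 0.632% for Gip and 0.421% for Cck. Of the anterior enteroendocrine-like cells 17.6% were Sst-positive, a share close to that background, but their summed Sst level was 593 CP10K, against 3.56 CP10K in enterocyte-like cells. The groups were not exclusive: of the anterior cells 16 were positive for 1 of the 7 listed peptide hormones, 28 for 2, 19 for 3, and 7 and 2 cells for 4 and 5.

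By the summed levels of pooled cells, Sct-positive cells held more Id1 than Sct-negative cells in both regions and more Id3 in the anterior cells. Whether the regions differ in this was not tested. In the anterior cells Id1 UMIs were seen in 42 of 63 Sct-positive and in 2 of 11 Sct-negative cells, and the summed level was 7.44 CP10K (95% counting interval 6.43 to 8.56) against 0.815 (0.168 to 2.38). Id3 UMIs were seen in 41 of 63 Sct-positive and 2 of 11 Sct-negative cells, at 9.28 (8.14 to 10.5) against 0.815 CP10K (0.168 to 2.38). For Id2 the intervals overlapped, with 32 of 63 Sct-positive and 4 of 11 Sct-negative cells and 5.90 (5.01 to 6.91) against 3.80 CP10K (2.08 to 6.38). The negative cells were shallower (median 2759 against 4018 UMIs in positive cells) and 10 of the 11 came from mouse 1. Chga and Chgb stood at 93.5 and 243 CP10K in Sct-positive and 72.0 and 174 CP10K in Sct-negative cells.

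In the posterior samples the 5 Sct-negative cells all came from mouse 1 and had a median of 893 UMIs, against 2670 in the 37 positive cells. Of these 5 cells 1 had 9825 UMIs, so their counts of 0 rest largely on that cell. Id1 was at 14.5 CP10K in Sct-positive cells (12.0 without the cell of 24885 UMIs) and at 0 in Sct-negative cells, where a count of 0 allows up to 2.59 CP10K at 95% confidence. Id2 was at 3.08 CP10K in Sct-positive and at 0 in Sct-negative cells, with the same upper limit, so a difference in Id2 was not detectable at this depth. The summed level of Id3 was 9.58 CP10K in Sct-positive and 9.82 CP10K in Sct-negative cells. This likeness depended on the weighting, since the mean Id3 level per cell was 10.2 CP10K in Sct-positive and 33.1 CP10K in Sct-negative cells. Without the cell that held the most Id3 UMIs the Sct-negative mean was 24.2 CP10K. Only mouse 1 gave at least 3 cells on each side in either region, so the Sct groups have no test over mice. These intervals cover counting error only.

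Cck was the one hormone with at least 3 positive and 3 negative cells in 3 samples. Id2 was 7.76, 10.3 and 2.62 CP10K in Cck-positive cells of anterior mouse 1, anterior mouse 2 and posterior mouse 1, against 4.34, 1.82 and 4.29 CP10K in Cck-negative cells of the same samples. It was thus higher in the positive cells of both anterior samples and lower in the posterior one. Id1 was 9.31, 3.98 and 17.1 CP10K in Cck-positive and 5.34, 6.56 and 8.94 CP10K in Cck-negative cells, and the cell of 24885 UMIs held 57.8% of the Id1 UMIs of the posterior Cck-positive cells. Id3 was 10.9, 6.63 and 8.81 CP10K in Cck-positive and 7.26, 2.19 and 8.40 CP10K in Cck-negative cells. It was higher in all 3 samples, but by only 0.06 on the log2 scale in posterior mouse 1. The posterior direction depended on the cells taken. Over all posterior cells the mean Id3 level per cell was 9.36 CP10K in Cck-positive and 13.7 CP10K in Cck-negative cells. The summed level was also lower in these positive cells. Over all anterior cells the means were 10.3 and 7.11 CP10K. In anterior mouse 2 the Cck-positive values came largely from 1 of 3 cells, with 14733 UMIs. That cell held all 12 Id1, 19 of the 31 Id2 and 17 of the 20 Id3 UMIs of the group. The mean log2 differences were 0.32, 0.72 and 0.61 for Id1, Id2 and Id3, with exact two-sided sign-flip permutation p = 0.5, 0.5 and 0.25 (adjusted p = 0.5 each), where 3 samples cannot go below 0.25, and 0% of the 3 tests passed.

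Anterior Cck-positive cells, 22 in all, had low Chga (8.96 CP10K) and Chgb (87.8 CP10K), against 142 and 325 CP10K in the 52 Cck-negative cells. Their Id2 level was 8.43 CP10K (6.83 to 10.3) against 3.92 (3.06 to 4.93), with Id2 UMIs in 15 of 22 positive and 21 of 52 negative cells, and without the cell that held the most Id2 UMIs the level of the positive cells was 7.02 CP10K.

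Gip-positive cells had lower Id3 than Gip-negative cells in the anterior and higher Id3 in the posterior cells, by the summed levels. The 39 anterior Gip-positive cells had 6.10 (4.90 to 7.50), 4.38 (3.38 to 5.60) and 6.37 (5.14 to 7.80) CP10K of Id1, Id2 and Id3, against 7.12 (5.84 to 8.60) and 6.86 (5.60 to 8.31) CP10K of Id1 and Id2 in 35 Gip-negative cells, whose Id3 counting interval was 8.49 to 11.7 CP10K. The 10 posterior Gip-positive cells, all from mouse 1 and with a median of 972 UMIs, had 1.44 CP10K of Id1 from 3 UMIs (0.298 to 4.22), against 14.9 CP10K in 32 Gip-negative cells with a median of 2939 UMIs. The same 10 cells had 16.4 CP10K of Id3 (11.3 to 22.9) against 8.62 CP10K (7.16 to 10.3) in the negative cells. Their summed Id2 level was 4.81 against 2.52 CP10K, with 70.0% of those Id2 UMIs in 1 cell, and 2.00 CP10K without it. The Id2 direction depended on the weighting, since the mean per cell was 2.33 CP10K in Gip-positive and 4.80 CP10K in Gip-negative cells. In posterior mouse 1 alone Id1 was at 1.44 CP10K in Gip-positive and 15.6 CP10K in Gip-negative cells. The difference between regions was not tested, since only mouse 1 gave enough cells on each side.

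Tph1-positive cells had high granin levels, with 169 CP10K of Chga and 389 CP10K of Chgb against 31.6 and 117 CP10K in Tph1-negative anterior cells. Their Id3 level was 11.5 and 8.42 CP10K in anterior mice 1 and 2, against 7.27 and 1.27 CP10K in Tph1-negative cells. Id1 was 8.12 and 9.56 CP10K in Tph1-positive and 6.37 and 1.59 CP10K in Tph1-negative cells, and Id2 6.56 and 7.27 against 5.32 and 5.41 CP10K. All 6 values were higher in the positive cells, with 3 positive and 5 negative cells in mouse 2, and 2 samples allow no test. In mouse 2 the values came largely from 1 positive cell, the one of 14733 UMIs. It held all 19 Id2, 17 of the 22 Id3 and 12 of the 25 Id1 UMIs of the positive cells. Over all anterior cells the mean Id1 level per cell was 6.08 CP10K in Tph1-positive and 6.25 CP10K in Tph1-negative cells.

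The smaller groups gave wider intervals. Anterior Ghrl-positive cells, 9 in all, had a counting interval of 7.44 to 13.1 CP10K of Id2, against 3.92 to 5.68 CP10K in the 65 Ghrl-negative cells, and 7 of the 9 carried Id2 UMIs. Anterior Nts-positive cells, 7 in all, had 9.34 CP10K of Id2 (6.47 to 13.1), against 5.13 (4.30 to 6.07) in Nts-negative cells. A single cell of anterior mouse 2 with 14733 UMIs held 37.3% of the Id2 UMIs of the Ghrl-positive and 55.9% of those of the Nts-positive cells. In the 13 Sst-positive cells the summed levels were 4.32, 3.70 and 4.11 CP10K of Id1, Id2 and Id3, against 7.07, 6.02 and 9.03 CP10K in Sst-negative cells. The Id2 direction there depended on the weighting, since the mean per cell was 6.36 CP10K in Sst-positive and 5.46 CP10K in Sst-negative cells. Without the cell that held 38.9% of their Id2 UMIs the Sst-positive mean was 4.04 CP10K. The 14 Tac1-positive cells had 6.01, 4.27 and 10.9 CP10K of Id1, Id2 and Id3, against 6.74, 5.93 and 7.68 CP10K in Tac1-negative cells, with overlapping intervals for all 3 genes. Posterior Pyy-positive cells had 17.9 CP10K of Id1, but only 2 of the 8 carried Id1 UMIs and 1 cell, the same of 24885 UMIs, held 77.0% of them. Without it the level was 8.42 CP10K, against 11.2 CP10K in Pyy-negative cells. Posterior Nts-positive cells, 2 from each mouse, had 20.8 CP10K of Id1 (16.9 to 25.2), against 9.96 (8.22 to 12.0) in Nts-negative cells. Of the 6 positive cells 5 carried Id1 UMIs, and the cell of 24885 UMIs held 65.7% of these UMIs. Without that cell the level was 14.4 CP10K. With 2 positive cells a mouse there was no test.

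**Figure D3:**
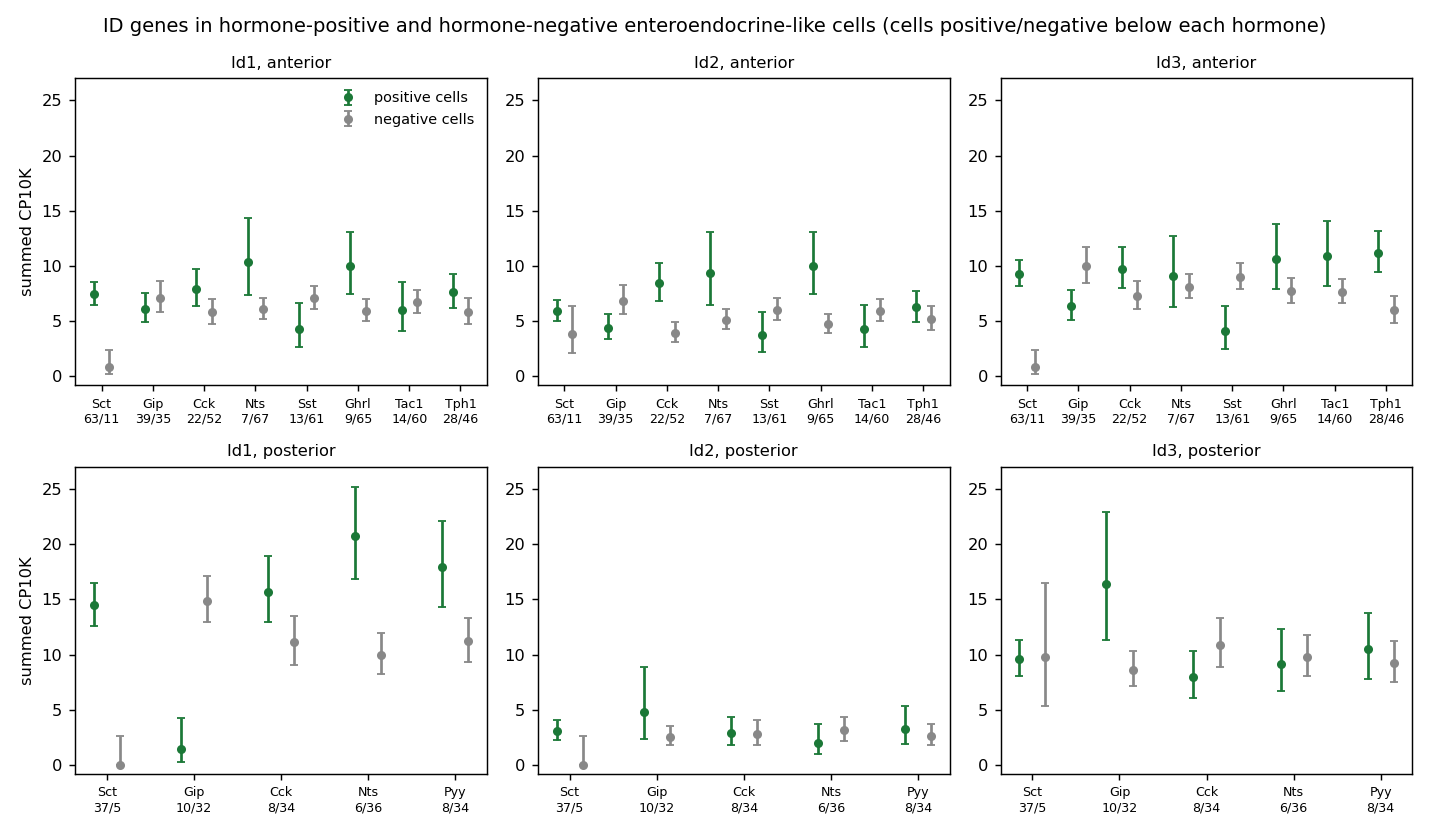
Summed level of Id1, Id2 and Id3 (vertical axis, CP10K) in hormone-positive (green) and hormone-negative (grey) enteroendocrine-like cells for each listed hormone gene (horizontal axis, with the numbers of positive and negative cells), anterior above and posterior below; bars are 95% counting intervals. Anterior Sct-positive cells were at 7.44 CP10K of Id1 and 9.28 CP10K of Id3, against 0.815 CP10K of each in Sct-negative cells.

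Grouping each cell by the peptide hormone with the most CP10K, a grouping chosen after the values were seen, gave single leading hormones. Of the anterior cells 31 were led by Sct, 18 by Gip and 15 by Cck. The 15 Cck-led cells had 10.5 CP10K of Id2 with a lower counting bound of 8.33, the 31 Sct-led cells 6.04 (4.71 to 7.63) and the 18 Gip-led cells 1.36 (0.624 to 2.59). Id3 showed the same order, with 12.6 (10.2 to 15.3), 10.9 (9.05 to 12.9) and 1.82 CP10K (0.940 to 3.18), and Id1 was at 9.71 (7.64 to 12.2), 7.16 (5.70 to 8.87) and 3.03 CP10K (1.85 to 4.68). Their median depths were 4839, 3613 and 3499 UMIs, and 13 of the Cck-led, 23 of the Sct-led and 17 of the Gip-led cells came from mouse 1, so the order describes mainly that animal. In the posterior cells the 26 Sct-led cells had 15.8, 3.08 and 8.13 CP10K of Id1, Id2 and Id3, and the 11 Gip-led cells, all from mouse 1 with a median of 894 UMIs, had 1.39, 4.64 and 17.6 CP10K.

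Chga and Chgb gave no split of the ID genes that passed the test. Enteroendocrine-like cells were divided at the median of Chga or Chgb of their sample, which left 5 samples with at least 3 cells on each side. Id1 was 7.84, 7.94 and 5.37 CP10K in the Chga-high cells of anterior mice 1, 2 and 3 and 16.9 and 16.2 CP10K in those of posterior mice 1 and 2, against 6.35, 3.74, 8.71, 3.41 and 16.2 CP10K in the Chga-low cells. It was higher in the Chga-high cells of 4 of the 5 samples, by less than 0.01 on the log2 scale in posterior mouse 2, and 67 of the 130 Id1 UMIs of the Chga-high cells of posterior mouse 1 came from 1 cell. Id2 was 6.67, 2.48, 4.39, 2.34 and 0 CP10K in the Chga-high cells of the same samples, against 5.08, 8.28, 3.73, 6.19 and 3.15 CP10K in the Chga-low cells.

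The mean log2 differences by Chga were 0.52 for Id1 (exact two-sided sign-flip permutation p = 0.312), -0.81 for Id2 (higher in 2 of 5 samples, p = 0.25) and -0.30 for Id3 (3 of 5, p = 0.5). By Chgb they were -0.12 for Id1 (3 of 5, permutation p = 0.75), -0.63 for Id2 (1 of 5, p = 0.312) and 0.10 for Id3 (3 of 5, p = 0.875). The adjusted p-values were between 0.625 and 0.875, 5 samples cannot go below 0.0625, and 0% of the 6 tests passed.

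Most enteroendocrine-like cells carried some ID transcript. At least 1 ID UMI was present in 93 of 116 cells (80.2%), and 25 cells (21.6%) carried all 3 genes, with 25.7% of the anterior and 14.3% of the posterior cells. After thinning to 1000 UMIs, 71.2% of 104 enteroendocrine-like cells still carried at least 1 of the 3, against 43.6% of tuft-like, 38.5% of goblet-like, 43.5% of crypt progenitor-like and 31.8% of enterocyte-like cells. All 3 were seen in 6.73% of the thinned enteroendocrine-like cells (7 cells), in 0.595% of crypt progenitor-like, 0.242% of enterocyte-like and in none of 39 tuft-like and 569 goblet-like cells.

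**Figure D4:**
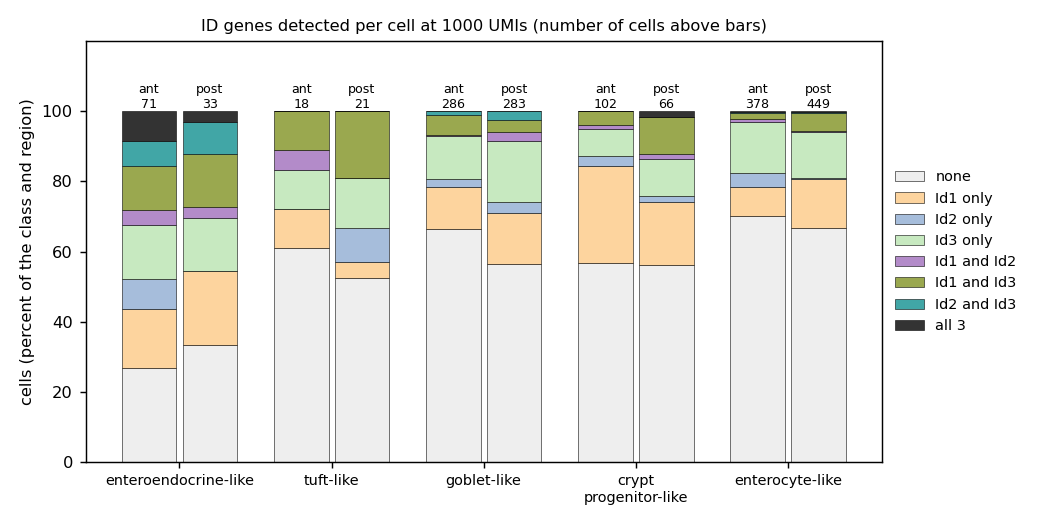
Percent of cells (vertical axis) with UMIs of no, 1, 2 or all 3 ID genes after thinning to 1000 UMIs per cell, by cell class and region (horizontal axis; number of cells above each bar). Cells with none made up 26.8% of the anterior and 33.3% of the posterior enteroendocrine-like cells, against 70.1% and 66.6% of the enterocyte-like cells.

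Within enteroendocrine-like cells of both regions together, the pairs met more often than the product of their shares. After thinning the margin was small for Id1 with Id2 and Id1 with Id3 and wider for Id2 with Id3. In the 104 thinned cells Id1 and Id3 were seen together in 21 cells, where the product of the shares gives 19.0, Id2 and Id3 in 15 (10.8), and Id1 and Id2 in 11 (10.6). Cells with an Id3 UMI had higher Id1 in all 3 samples with at least 3 cells on each side (mean log2 difference 1.43, exact permutation p = 0.25, adjusted p = 0.611 over 22 pair tests) and higher Id2 in all 3 (0.88, exact permutation p = 0.25, adjusted p = 0.611). Cells with an Id2 UMI had higher Id1 and Id3 in 2 of 3 samples (0.85 and 0.84, exact permutation p = 0.5 each). The smallest p that 3 samples allow is 0.25. In enterocyte-like cells, with 6 samples, cells with an Id1 UMI had higher Id3 in 6 of 6 samples (0.33, exact permutation p = 0.0312, which is the smallest possible, adjusted p = 0.458). In all, 0% of the 22 pair tests passed, and such splits share depth, since deeper cells more often carry a UMI of any gene. In the 33 thinned posterior enteroendocrine-like cells Id1 and Id2 met in 2 (product 2.12), Id1 and Id3 in 6 (5.94) and Id2 and Id3 in 4 (2.12). Other classes showed such margins too. After thinning Id1 and Id3 met in 6 (2.82) tuft-like, 26 (23.0) goblet-like, 12 (8.68) crypt progenitor-like and 31 (22.9) enterocyte-like cells. Id2 and Id3 met in 0 (0.846), 10 (7.17), 1 (1.12) and 4 (4.62), in the same order.

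Across single cells the relations were weak to moderate. Whether they differ between regions was not tested, and 30 of the 42 posterior cells came from mouse 1. In 74 anterior enteroendocrine-like cells Pearson's r of log-scale levels was 0.28 for Id1 with Id2, 0.35 for Id1 with Id3 and 0.33 for Id2 with Id3, and in 42 posterior cells -0.04, 0.16 and 0.02. With Sct it was 0.52 for Id1, 0.33 for Id2 and 0.47 for Id3 in anterior cells and 0.33, 0.26 and -0.01 in posterior cells. With Nts it was 0.19, 0.24 and -0.09 in anterior cells and 0.37, -0.01 and 0.25 in posterior cells. The value of 0.37, for Id1, was the highest of the posterior ones, and it was 0.29 within samples. With Gip it was -0.14, -0.27 and -0.21 in anterior cells and -0.36, -0.07 and 0.02 in posterior cells. With Cck it reached 0.37 for Id2 in anterior cells. With Chga and Chgb it lay between 0.05 and 0.14 in anterior cells, and in posterior cells Id1 was at 0.34 and 0.36, Id2 at -0.02 and 0.08 and Id3 at -0.18 and 0.01. Within samples the posterior values of Id1 were 0.28 and 0.30, and that of Id3 with Chga was -0.27. Within samples posterior Id1 with Id3 was at 0.07 and Id2 with Sct at 0.39. The cells share plates, mice and depth: the Spearman correlation of Id1 with the cell's total UMIs was 0.19 in anterior and 0.51 in posterior cells. In counts this sparse these coefficients describe the cells only.

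**Figure D5:**
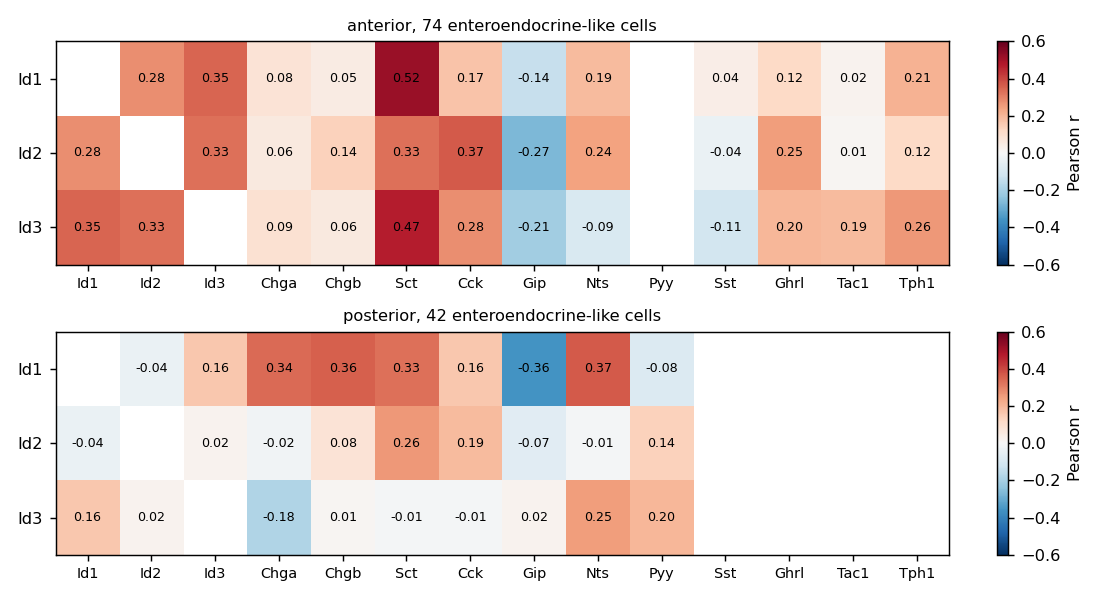
Pearson's r across single enteroendocrine-like cells between each ID gene (rows) and the ID, granin and hormone genes (columns) in the anterior (74 cells, upper panel) and posterior table (42 cells, lower panel); blank squares are a gene with itself or a gene the region's data do not list. Sct with Id1 gave the highest value in the anterior cells, 0.52, and was at 0.33 in the posterior cells.

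Over the 29 class-by-sample levels, the genes whose log2 level followed Id2 most closely were Gstt1 (r = 0.73), Itm2c (0.71), Dync1i2 (0.70), Reg4 (0.70) and Phf2 (0.70), among 5258 genes. For Id1 they were Pkdcc (0.71), Bex3 (0.71), Sox4 (0.64), Tceal9 (0.63) and Sct (0.61), and for Id3 Zmiz2, Rap1b, Syt7 and Atp6v1b2 (0.67 each) and Rbm39 (0.65). Several of these, namely Reg4, Itm2c, Bex3, Tceal9 and Syt7, were among the 10 leading genes of the enteroendocrine-like cluster, so these values also reflect the difference between that class and the others. Id1 and Id3 correlated at 0.56 with each other, and Id2 at 0.11 with Id1 and 0.21 with Id3. The levels of 1 sample share its mouse and plates.

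Of 7 ID and E protein genes 4 were tested, and Tcf3, the one E protein gene among them, had 0.548 ± 0.533 CP10K in enteroendocrine-like cells (SD, n = 6) and did not pass (log2 difference from the 3 classes -0.28). Of 20 tissue bHLH genes 12 were tested, with a median of -0.40 against -0.27 over all genes, and 3 passed (1 higher, 2 lower), where 12.5% of all genes passed and 3.50% were higher. Hes6, which antagonises HES1, was higher in enteroendocrine-like cells (1.53, SE 0.51, limma adjusted p = 0.0399), and 2 were lower. They were Atoh1, a secretory lineage factor (-1.14, limma adjusted p = 0.00386), and Hes1, a Notch target (-1.38, limma adjusted p = 0.00642). Atoh1 stood at 0.0211 ± 0.0329 CP10K in enteroendocrine-like and 1.84 ± 0.804 in goblet-like cells, and Hes1 at 0.139 ± 0.240 in enteroendocrine-like and 1.75 ± 0.532 CP10K in crypt progenitor-like cells. In enterocyte-like cells Atoh1 was at 0.0130 ± 0.0125 and Hes1 at 0.367 ± 0.123 CP10K.

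Of 18 enteroendocrine transcription factors only Sox4 was tested. It was at 4.39 ± 3.25 CP10K in enteroendocrine-like cells, 0.856 ± 0.474 in crypt progenitor-like, 0.381 ± 0.363 in goblet-like and 0.0600 ± 0.0829 CP10K in enterocyte-like cells (SD, n = 6), a log2 difference of 2.88 (SE 0.44, adjusted p = 2.27e-05 by limma). Of 32 BMP and SMAD pathway genes 10 were tested and 0 passed by limma, where 12.5% of all genes passed, with a median of 0.47 against -0.27 over all genes. Smad1, a carrier of BMP signals, was at 0.81 and Smad7, an inhibitory SMAD, at 0.77, and neither passed. Against tuft-like cells Sox4 (limma, 3.76, adjusted p = 9.22e-06), the glucose-responsive factor Mlxipl (2.54, adjusted p = 0.0106) and the stress-response factor Atf3 (2.55, adjusted p = 0.0166) were higher. They were the only gene tested of the enteroendocrine factors, 1 of 12 bHLH genes and 1 of 10 BMP and SMAD genes, where 8.54% of all genes were higher. Between the regions 0 genes of these lists passed in any class.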

How the data were processed

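EpCAM-positive jejunal cells were profiled by MARS-seq, and 2043 cells of 6 samples were analysed. The authors' deposited tables, 1 per region, hold log2 values per gene and cell, with values below 0. The values themselves showed what they were: UMI counts over a size factor for each cell, plus 1, on a log2 scale, after a linear adjustment fitted gene by gene. The submitters' processing notes name bcl2fastq, UMI-tools 1.0.0, cutadapt 1.18, STAR 2.6.1b, R and the GRCm38 (mm10) build. Filters on genes and cells, and the counting annotation, are not given in the sources used here. Only 5674 genes were listed in both tables, so absent regulators are not analysed here.

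The adjustment was undone, which gave whole UMI counts for 100.0% of values (tolerance 0.01), and CP10K were computed from them over the shared genes (98.0% of UMIs). This step was tested on simulated data. Depth was 2766 to 8689.5 UMIs per cell in the sample medians, and 212 cells had under 1000 UMIs. Cells were clustered with scanpy 1.11.5 (1500 variable genes, 25 components, 15 neighbours, Leiden resolution 1), leaving out 31 ID, bHLH, endocrine, BMP and hormone genes. Clusters were named from fixed markers (at least 3 raised, 2 of them in at least 50% of cells), a rule chosen after the clusters were seen. 2 cells with at least 100 immunoglobulin UMIs were set aside. Wells held single sorted cells and no doublet caller was run. Wells with 0 or 10 cells were not used.

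Class and region levels were tested with limma 3.58.1 (R 4.3.3) on log2(mean CP10K + 0.2) for classes with at least 3 cells in a sample and genes whose mean reached 0.2 CP10K, and p-values were adjusted by the Benjamini-Hochberg method over all genes of a comparison, with a threshold of 0.05. Splits of cells were tested by exact two-sided sign-flip permutation over samples on log2(CP10K + 1). Counting intervals (95%, Poisson for levels) cover counting error only. The 2 regions of a mouse are paired by the animal. Same-mouse deviations correlated at 0.73, 0.21 and 0.68 in enterocyte-like cells over 878 genes and at 0.49, 0.13 and 0.22 in goblet-like cells over 649 genes.

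The text names the 3 ID genes, the granins and all listed hormone genes, from 4 gene lists the genes that passed (at most 8 a list by p), and the 5 genes most like each ID gene. Tcf3, Smad1 and Smad7 were named after their values were seen. The genes and lists were chosen with earlier results of these data known. Alternatives were the pseudocount, the filter, summed UMIs, the cell minimum, thinning, a class defined by Chga or Chgb level, the replicate block and leaving out each sample. Fits on 1 region were added after the data were seen.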

Additional observations from a re-analysis of the deposited data

How the results depend on the processing

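The enteroendocrine-like excess of Id2 over the 3 abundant classes passed in every fit except that on posterior samples only (1.61, limma adjusted p = 0.185). Anterior samples only gave 1.34 for Id1 (0.118) and 1.41 for Id3 (0.259), posterior samples only 1.22 for Id1 (0.142), and cells chosen by Chga or Chgb level 0.88 for Id1 (0.0860) and 1.20 for Id3 (0.0939), so 1 ID gene passed in each of these 3. The choice by Chga or Chgb level kept 99 of the 116 enteroendocrine-like cells. It also took in 28 goblet-like, 25 enterocyte-like, 8 Paneth-like, 2 crypt progenitor-like and 2 unnamed cells. Fits on 1 region were chosen after seeing the data and hold fewer samples. Leaving out 1 sample gave 1.06 to 1.42 for Id1. Against tuft-like cells Id1 passed with summed UMIs (1.20) and with at least 5 cells (1.37). Id3 missed with at least 5 cells (0.85), by Chga or Chgb level (1.35), in anterior (2.51) and in posterior samples only (1.05), as did Id2 in posterior samples only (1.49). The ID genes passing were 1, 1 and 0 by granin level, in anterior and in posterior samples only. Leaving out 1 sample gave 1.73 to 2.70 for Id2, 1.02 to 2.40 for Id3 and 1 to 2 genes passing. Id1 in crypt progenitor-like against enterocyte-like cells passed, as 1 ID gene, with a pseudocount of 1 (0.78), summed UMIs (1.08), at least 5 cells (0.99) and classes by granin level (1.05). Where the cause is not the smaller number of samples, it was not tested.

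Among values with a test, 22 changed sign under an alternative, and 0 of these were past the threshold in the main fit. Splits with too few samples for a test are not in this count, and some of them changed sign too. Without 1 sample, enteroendocrine-like splits ranged from -0.49 to 0.48 (Id2 by Gip), -0.68 to 1.16 (Id3 by Gip) and -0.20 to 2.51 (Id3 by Sct). Those by an Id1 UMI ranged from -0.52 to 1.54 (Id2) and -0.15 to 1.95 (Id3), and in tuft-like cells from -0.39 to 0.01 (Id2). Tuft-like minus abundant classes turned to 0.02 (Id2) and 0.12 (Id3) with a pseudocount of 1, 0.87 (Id3) with at least 5 cells, and 0.12 and 1.19 in posterior samples only. It ranged from -0.61 to 0.40 for Id2 and -0.52 to 0.71 for Id3 without 1 sample. Crypt progenitor-like minus enterocyte-like Id2 turned to -0.24 (pseudocount 0.05), -0.09 (summed UMIs) and -0.23 (posterior only), and ranged from -0.22 to 0.29 without 1 sample. The goblet-like region difference of Id3 turned to -0.11 with summed UMIs. Without 1 sample the region differences ranged from -0.40 to 0.18 (Id1) and -1.21 to 1.72 (Id2) in tuft-like, -1.46 to 0.09 (Id2) and -0.31 to 0.25 (Id3) in goblet-like, and -0.27 to 0.09 (Id3) in crypt progenitor-like cells. The Chgb splits ranged from -0.38 to 0.20 (Id1) and -0.12 to 0.36 (Id3).

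Among splits by the UMI of another ID gene, thinning to 1000 UMIs gave, in goblet-like cells, -0.52 (Id3 by Id1), -0.11 (Id1 by Id2), 0.26 (Id3 by Id2), -0.40 (Id1 by Id3) and 0.29 (Id2 by Id3), in crypt progenitor-like cells -0.41 (Id2 by Id3), and in enterocyte-like cells -0.48 (Id3 by Id2) and -0.22 (Id2 by Id3). A pseudocount of 0.2 gave 0.01 for goblet-like Id2 by Id1. Without 1 sample, goblet-like splits ranged from -0.14 to 0.06 (Id2 by Id1), -0.01 to 0.33 (Id1 by Id2), -0.02 to 0.48 (Id1 by Id3) and -0.21 to 0.02 (Id2 by Id3), crypt progenitor-like ones from -0.09 to 0.59 (Id3 by Id1) and -0.02 to 0.28 (Id2 by Id3), and enterocyte-like ones from -0.03 to 0.09 (Id2 by Id1), -0.05 to 0.17 (Id1 by Id2) and -0.05 to 0.05 (Id2 by Id3).

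With the mouse as a replicate block, the enteroendocrine-like region differences were -0.59, 1.85 and -1.0 for Id1, Id2 and Id3 (limma adjusted p = 0.889, 0.797 and 0.81), and the block changed no call of an ID gene. Over all genes 4 passed without and 1 with the block. Without the sample as a block, Id1, Id2 and Id3 kept 1.28, 2.16 and 1.83 against the abundant classes and passed. Cell number limits mice 2 and 3, which gave 8 and 6 anterior and 8 and 4 posterior enteroendocrine-like cells. Depth was lowest in mouse 1, with median UMI counts of 3714 (anterior) and 1822 (posterior) in these cells.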

Other observations

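Each single-cell well carries a marker label of pos or neg, and the labels do not name the marker, so these values are descriptions. Of the enteroendocrine-like cells 63 were pos and 53 neg. Their summed Id2 level was 5.63 CP10K in pos cells (95% counting interval 4.73 to 6.66) and 3.53 CP10K in neg cells (2.79 to 4.41), whereas the counting interval of Id1 was 6.93 to 9.22 CP10K in pos and 8.72 to 11.4 CP10K in neg cells. These intervals pool mice and regions and cover counting error only. The samples overlapped, with Id2 from 0 to 7.83 CP10K in pos and from 0 to 5.72 CP10K in neg cells. Id1 ran from 5.53 to 9.95 and from 3.43 to 18.2 CP10K. In crypt progenitor-like cells Id2 was at 0.914 CP10K in 85 pos cells (0.752 to 1.10) and at 0.256 CP10K in 83 neg cells (0.173 to 0.365), and Id1 at 5.50 CP10K in pos and 3.33 CP10K in neg cells. Here too the samples overlapped, with Id2 from 0 to 1.57 CP10K in pos and 0 to 0.752 CP10K in neg cells. Id1 ran from 1.49 to 8.79 and from 2.30 to 5.35 CP10K. In goblet-like cells Id2 was at 0.851 CP10K in pos and 1.08 CP10K in neg cells. In enterocyte-like cells Id2 was at 0.447 CP10K in pos and 0.470 CP10K in neg cells. Over all cells Id2 was at 0.804 in 1085 pos and 0.650 CP10K in 958 neg cells.

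The 97 Paneth-like cells, with a median of 906 UMIs, carried 24, 5 and 22 UMIs of Id1, Id2 and Id3, or summed levels of 0.952 (0.610 to 1.42), 0.198 (0.0644 to 0.463) and 0.872 CP10K (0.547 to 1.32).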
